A study of Mus musculus with 10 samples.

Results

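The genes described here encode the cytokine TNF (Tnf), its receptors (Tnfrsf1a and Tnfrsf1b), proteins that carry the signal away from those receptors (Traf1, Traf2, Birc2, Birc3, Ripk1 and Cflar) and 1 adhesion molecule that TNF induces (Icam1). They were taken by gene symbol, 10 of the 57010 identifiers in the deposited expression table, and all 10 were abundant enough to be tested. They were chosen by name with the measured response to confinement in view, in which the read counts of Tnf were among those that differed most, so their differences between confined and unconfined cells are given as descriptions. The number of them past the threshold is printed beside that of all genes, and nothing is read from it. Differences between the genotypes, and between the responses of the genotypes, were tested.

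RNA was sequenced from bone marrow-derived macrophages, cells grown out of mouse femoral marrow for 7 days in RPMI with 20 ng/mL recombinant mouse M-CSF, the growth factor that drives marrow progenitors to become macrophages. The marrow came from wild-type mice (WT) or from mice without WASp (WKO), the activator of branched actin assembly that blood cells express from the gene Was. Cells were either controls without confinement, or were squeezed for 1 h to a height of 3 µm under PDMS micropillars, with 5 ng of total RNA going into each library. There were 2 unconfined WT libraries (replicates 1 and 3), 3 confined WT libraries (replicates 2, 3 and 6), 2 unconfined WKO libraries (replicates 1 and 3) and 3 confined WKO libraries (replicates 1, 2 and 5). The labels give no strain, age or number of mice, and they do not say whether libraries came from separate mice or how the control cells were handled. The p-values therefore measure only the spread between these libraries, which may be technical. All values below are normalized read counts, reads scaled for library depth, unless another scale is named.

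TNF is made as a trimer on the cell surface and is shed from it by a protease. Tnfrsf1a (TNFR1) carries a death domain and is found on most cell types, whereas Tnfrsf1b (TNFR2) lacks that domain and is abundant on blood cells. Bound TNFR1 gathers TRADD, RIPK1, TRAF2 and the ubiquitin ligases cIAP1 (Birc2) and cIAP2 (Birc3), and the ubiquitin chains built there lead through the IKK kinases to NF-kB. NF-kB in turn switches on genes that restrain the pathway or keep the cell alive, among them Nfkbia, Tnfaip3, Birc3 and Cflar. Macrophages are a main source of TNF and are known to make it within the first hour of many stimuli.

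Was, the deleted gene, followed the labels of every library. Between 13295701 and 19329908 reads were counted per library, and 3 reads, the detection floor used here, equal 2.35 to 3.59 normalized reads. Was lay between 1308 and 1649 in the WT libraries and between 96.9 and 154 in the WKO libraries. The 10 macrophage markers, which include Csf1r, Adgre1 and Cd68, summed to 283917 or more in every library. Confined WKO replicate 5 stood apart from the other libraries: it was the highest of all 10 libraries for 7 of the 10 genes described here and for 21.9% of the tested genes. It also had the highest sum of 13 stromal markers such as Col1a1 and Dcn, 12429 against 4029 and 1110 in confined WKO replicates 1 and 2, 2809 to 3328 in unconfined WKO cells, and 245 to 2103 in the WT libraries. Of these 13 markers, 12 were highest in that library. What part those transcripts have in its values was not tested. Where that library moves a difference by much, the value without it is given as well.

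The 250 bases upstream of the start are shown for 3 genes that were higher in confined cells, because Tnf and Icam1 are known NF-kB targets and the letters can be set beside their values. Sequences are from RefSeq on GRCm38.p6, and promoter entries were found for all 10 genes. Tnf lies at chr17:35199381-35202007 on the minus strand, Icam1 at chr9:21015985-21028817 on the plus strand and Cflar at chr1:58711508-58758884 on the plus strand (GENCODE M21, GRCm38). The windows shown overlap no annotated exon and are at chr17:35202008-35202257 (minus strand) for Tnf, chr9:21015690-21015939 (plus strand) for Icam1 and chr1:58711241-58711490 (plus strand) for Cflar. Capitals mark matches, on either strand, to GGNNNTTCC, a loose form of the NF-kB site, or to TATAAA, the TATA box.
Tnf: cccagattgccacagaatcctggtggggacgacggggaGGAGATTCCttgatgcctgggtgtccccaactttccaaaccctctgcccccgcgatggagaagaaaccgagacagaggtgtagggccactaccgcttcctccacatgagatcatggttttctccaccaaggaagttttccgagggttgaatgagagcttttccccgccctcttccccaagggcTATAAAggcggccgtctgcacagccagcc
Icam1: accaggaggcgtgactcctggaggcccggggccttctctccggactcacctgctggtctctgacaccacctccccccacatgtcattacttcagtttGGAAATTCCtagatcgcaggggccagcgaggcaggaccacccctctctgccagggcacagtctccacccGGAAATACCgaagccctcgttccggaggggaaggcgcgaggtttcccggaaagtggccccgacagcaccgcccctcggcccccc
Cflar: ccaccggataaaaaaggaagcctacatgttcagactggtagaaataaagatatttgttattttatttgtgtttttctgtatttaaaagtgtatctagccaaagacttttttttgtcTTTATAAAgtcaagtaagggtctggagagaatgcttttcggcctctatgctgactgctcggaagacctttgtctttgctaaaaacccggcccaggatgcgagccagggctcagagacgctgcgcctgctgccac
Tnf held 1 match to GGNNNTTCC, GGAGATTCC at -212 to -204 from the start, and a TATA box at -29 to -24. Icam1 held GGAAATTCC at -153 to -145, which matches on both strands, and a match on the minus strand, GGTATTTCC, at -84 to -76. Cflar held no GGNNNTTCC in this window, and its capitals are a pair of overlapping TATAAA matches on opposite strands. Windows of Tnfrsf1a and Birc2, which were not higher in confined cells, also held 1 match to GGNNNTTCC each. Both overlap exons of their own gene, and another window of Birc2 held no match. The windows of Birc3, Traf1 and Traf2 held none, and neither did those of Tnfrsf1b and Ripk1, whose groups overlapped in both genotypes. A stricter form of the NF-kB site, found in 3.9% of all windows, was in none of the windows of the 10 genes, and neither was TGANTCA, the AP-1 site (6.75% of all windows). Of the 32851 promoter windows searched, 15.7% held GGNNNTTCC and 12.4% held TATAAA, so a match is common and is a description of the letters, not of a bound site.

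Tnf was the member with the widest difference between confined and unconfined cells. Unconfined WT cells held 71.2 and 69.1 (replicates 1 and 3) and unconfined WKO cells 32.6 and 124 (replicates 1 and 3). Confined WT cells held 3293, 5719 and 13389.5 (replicates 2, 3 and 6), and confined WKO cells 4583, 2368 and 17188 (replicates 1, 2 and 5). The group means were 70.2 ± 1.52 (SD, n = 2) and 7467 ± 5270.3 (SD, n = 3) in WT cells, and 78.2 ± 64.6 (SD, n = 2) and 8046 ± 7994 (SD, n = 3) in WKO cells. All 6 confined libraries lay above all 4 unconfined ones, and the lowest confined value was 19.1 times the highest unconfined value. The confined libraries themselves spanned a 4.07-fold range in WT and a 7.26-fold range in WKO cells, with WT replicate 6 and WKO replicate 5 the highest. The log2 fold change, on log2(normalized read count + 1), was 6.47 in WT cells and 6.46 in WKO cells (SE 0.765 for each), and 5.67 (SE 0.598) in WKO cells without replicate 5.

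**Figure D1:**
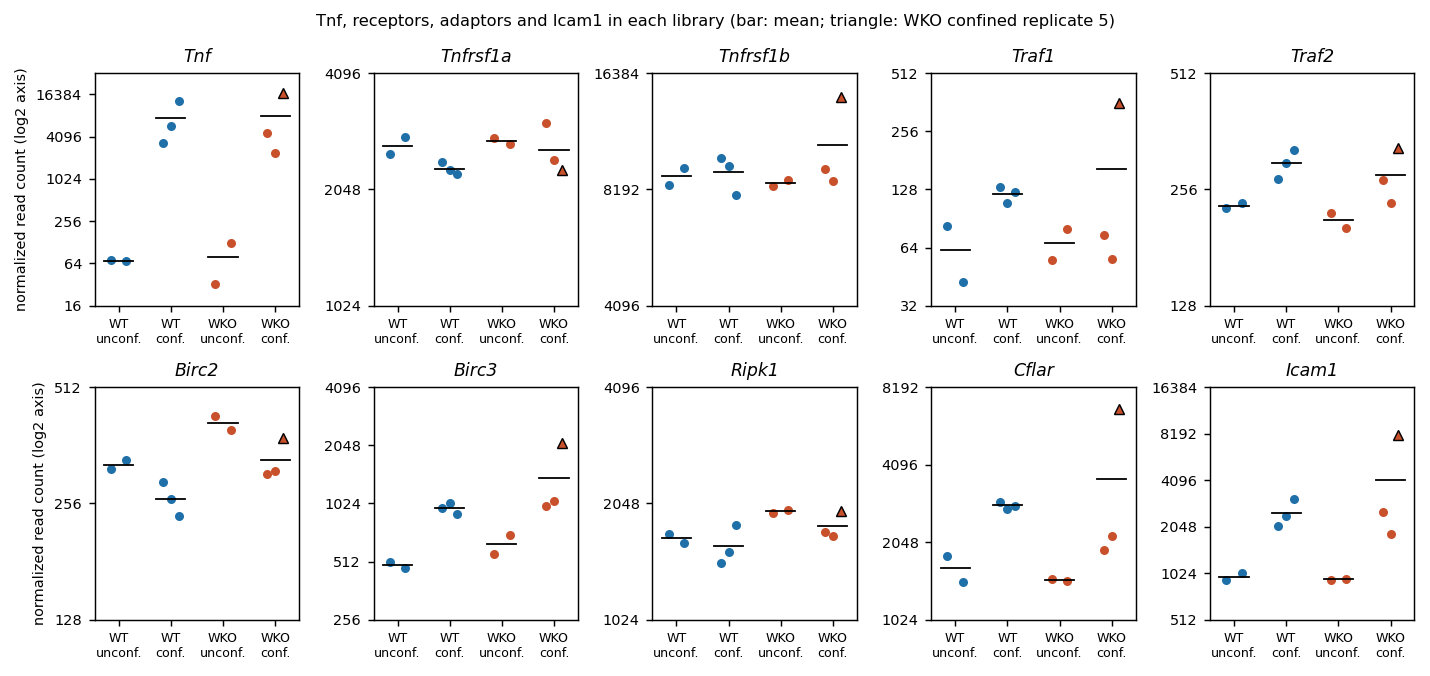
Normalized read counts (log2 axis, with its own range in each panel) of the 10 genes, with 1 point per library in each of the 4 groups, a bar at the group mean and a triangle for confined WKO replicate 5. Tnf separates all confined from all unconfined libraries (2368 or more against 124 or less), Tnfrsf1a and Ripk1 stay within narrow ranges, and confined WKO replicate 5 is the highest point for 7 genes.

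Transcripts of the 2 receptors differed little between confined and unconfined cells. Tnfrsf1a, the death-domain receptor, held 2524 and 2793 in unconfined WT cells and 2406, 2297 and 2246 in confined WT cells. Its WKO values were 2783 and 2682 in unconfined cells and 3044, 2449 and 2296 in confined cells. The confined WT libraries were all below the unconfined ones, by a log2 fold change of -0.20 (SE 0.127), whereas the WKO groups overlapped (log2 fold change -0.08). Tnfrsf1b, the receptor of blood cells, held 8391 and 9322 in unconfined and 9908, 9400.1 and 7932 in confined WT cells. In WKO cells it held 8366 and 8669 unconfined and 9261, 8618 and 14177 confined. Its groups overlapped in both genotypes, and its log2 fold change of 0.29 in WKO cells was 0.07 without replicate 5, which alone held 14177.

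The TRAF adaptors, which dock on the receptors and bring in ubiquitin ligases, differed from each other in how reliably they could be read. Traf2 held 229 and 236 in unconfined and 273, 299 and 325 in confined WT cells. Its WKO values were 223 and 203 unconfined and 271, 237 and 327 confined. All confined libraries were therefore higher in both genotypes, by log2 fold changes of 0.36 in WT and 0.37 in WKO cells (SE 0.176), a difference of about the size of 2 SE. Traf1, a family member that is itself an NF-kB target, had the lowest mean of the 10 genes in each group and held 44 to 299 reads per library. In unconfined WT replicate 1 and unconfined WKO replicate 1, Tnf held fewer reads than Traf1. It was at 82.6 and 42.2 in unconfined and 132, 109 and 125 in confined WT cells, which did not overlap. In WKO cells it was at 55.2 and 79.5 unconfined and 74.5, 55.8 and 358 confined, so that replicate 5 alone was above the unconfined cells. The WKO log2 fold change was 0.78 (SE 0.615) with replicate 5 and -0.04 (SE 0.351) without it.

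The 2 cellular inhibitor of apoptosis genes, neighbours on chromosome 9 that encode closely related ubiquitin ligases, lay on opposite sides. Birc3 held 508 and 475 in unconfined and 968, 1025 and 899 in confined WT cells. In WKO cells it held 557 and 706 unconfined and 998, 1056 and 2098 confined. No confined library overlapped an unconfined one in either genotype. The log2 fold change was 0.97 in WT and 1.05 in WKO cells (SE 0.260), and 0.71 (SE 0.145) in WKO cells without replicate 5. Birc2 held 313 and 332 in unconfined and 290.3, 263 and 237 in confined WT cells, and 432 and 396 in unconfined and 305, 311 and 379 in confined WKO cells. Every confined library was below every unconfined one of its genotype, with log2 fold changes of -0.30 in WT and -0.33 in WKO cells (SE 0.161). The longest transcripts of these 2 genes share no stretch of 100 bases at 95% identity or more.

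Ripk1, the kinase that sits between survival signalling and cell death at TNFR1, was near level. It held 1704 and 1622 in unconfined and 1433, 1533 and 1803 in confined WT cells. Its WKO values were 1938 and 1968 unconfined and 1730.0, 1689 and 1954 confined. The groups overlapped in both genotypes, with log2 fold changes of -0.07 in WT and -0.13 in WKO cells (SE 0.123). Exons of Ripk1 overlap those of Serpinb6a on the opposite strand, a gene with 7277 to 10281 normalized reads, and whether strand was used in counting is not given in the sources used here.

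Cflar encodes c-FLIP, the caspase-8 relative that blocks death signalling. It held 1804 and 1438 in unconfined and 2939, 2766 and 2831 in confined WT cells, 3 values that lay close together and above both unconfined ones. In WKO cells it held 1475 and 1451 unconfined, and 1906, 2162 and 6739.9 confined. Confined WKO libraries were again all higher, but replicate 5 was 3.31 times the mean of the other 2. The log2 fold change was 0.82 in WT and 1.05 in WKO cells (SE 0.394), and without replicate 5 it was 0.82 in WT and 0.47 in WKO cells, with an SE of 0.116 and 0.127.

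Icam1, the adhesion molecule that binds the leukocyte integrins LFA-1 and Mac-1, came after Tnf in the size of its difference. It held 927 and 1019 in unconfined and 2054, 2397 and 3089.7 in confined WT cells, and 930.3 and 936 in unconfined and 2541, 1832 and 7992 in confined WKO cells. The 4 unconfined libraries were nearly equal, and all confined ones were above them. The log2 fold change was 1.35 in WT and 1.84 in WKO cells (SE 0.445), and 1.21 (SE 0.186) in WKO cells without replicate 5. The order of the 6 confined libraries from high to low was WKO 5, WT 6, WT 3, WKO 1, WT 2 and WKO 2 for Tnf, and the same for Icam1 but for the exchange of WT 3 and WKO 1. A predicted gene, Gm47079, overlaps 11.7% of the exon bases of Icam1 on the other strand, and it held at most 6 reads in a library.

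**Figure D2:**
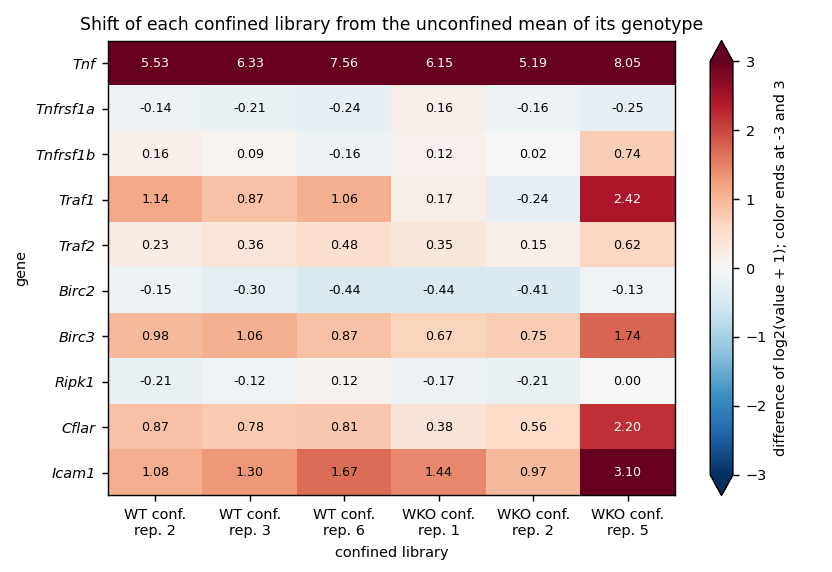
Heat map with 1 row per gene and 1 column per confined library, each cell giving the log2(value + 1) of that library minus the mean of the unconfined libraries of its genotype (colour ends at -3 and 3). Tnf lies between 5.19 and 8.05 in all 6 libraries, Birc2 is below 0 in all 6, and WKO replicate 5 exceeds the other libraries for Icam1 (3.10), Traf1 (2.42), Cflar (2.20) and Birc3 (1.74).

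Replicate 5 of the confined WKO cells was high for a subset of these genes. It was at least 1.5 times the mean of the other 2 confined WKO libraries for 6 of the 10 genes, against 11.9% of the tested genes. The ratios were 5.50 for Traf1, 4.95 for Tnf, 3.66 for Icam1, 3.31 for Cflar, 2.04 for Birc3 and 1.59 for Tnfrsf1b. The median ratio was 1.81 over the members and 1.01 over all tested genes. Tnf, Birc3, Icam1, Cflar and Traf2 were higher, and Birc2 was lower, in confined WKO replicates 1 and 2 as well, without overlap with the unconfined libraries. Traf1 was not.

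The counts over the 10 genes were as follows, beside the same counts over all 12455 tested genes. In WT cells, 6 members were higher without overlap and 2 were lower, and of all tested genes 18.3% were higher and 17.7% lower in that way. In WKO cells, 5 members were higher and 1 was lower without overlap, and of all tested genes 14.5% and 13.8%. At an adjusted p of 0.05 (limma, Benjamini-Hochberg over all tested genes), Tnf alone among the members passed in each genotype, where 1.16% of tested genes passed in WT cells and 1.72% in WKO cells. The median log2 fold change of the members was 0.59 in WT and 0.58 in WKO cells, and that of all tested genes was -0.007 and -0.01.

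**Figure D3:**
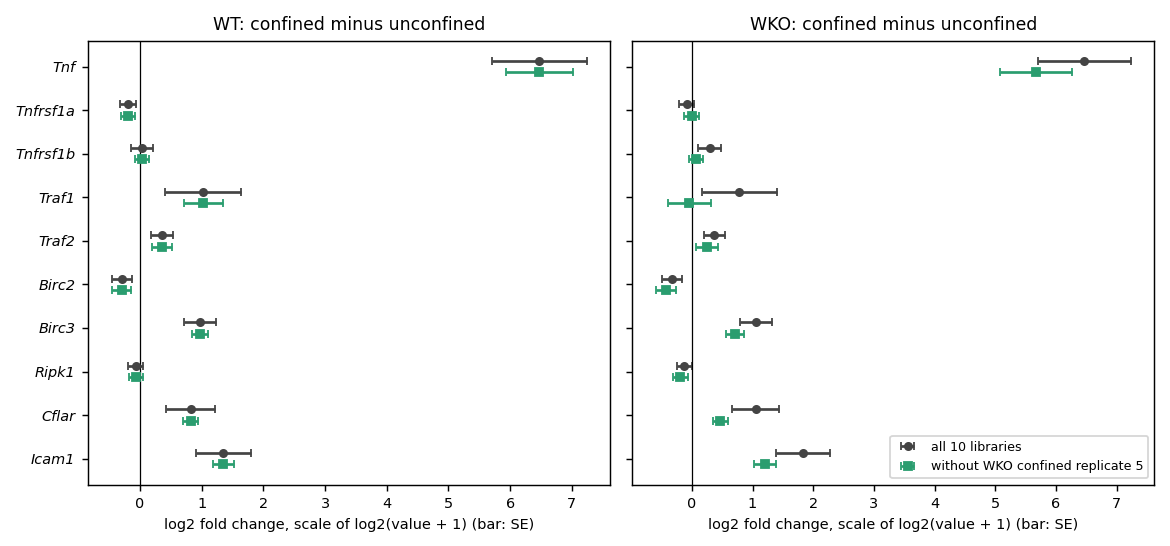
Log2 fold change of confined against unconfined cells for each gene in WT (left) and WKO cells (right), from all 10 libraries (circles) and without confined WKO replicate 5 (squares), with bars of 1 SE from the limma fit. Tnf stands at 6.47 and 6.46, Icam1, Birc3 and Cflar lie above 0, Birc2 lies below 0, and Traf1 in WKO cells moves from 0.78 to -0.04 when replicate 5 is left out.

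Levels can be compared between genes only per length, here as normalized reads per kilobase of exon. In unconfined cells Tnfrsf1b was the most abundant of the 10 transcripts (2320 in WT and 2231 in WKO cells) and Tnfrsf1a came second (1026 and 1055). Tnf, at 42.8 in WT cells and 47.7 in WKO cells, ranked 9 and 8 of 10. In confined cells the group mean of Tnf was 4556 in WT and 4909 in WKO cells, above that of Tnfrsf1b at 2378 and 2799. The order was not the same in every library: Tnf was above Tnfrsf1b in 4 of the 6 confined libraries and below it in WT replicate 2 (2009 against 2595) and WKO replicate 2 (1445 against 2257). Without WKO replicate 5 the WKO mean of Tnf was 2120 per kilobase, below the 2341 of Tnfrsf1b. Traf1 was the least abundant in every group, between 7.08 and 18.5 per kilobase. Icam1 was at 223 and 214 per kilobase in unconfined and 576 and 945 in confined cells, and at 501 in confined WKO cells without replicate 5.

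None of the 10 genes passed the test between WKO and WT cells, in unconfined cells, in confined cells or averaged over both (limma, adjusted p of 0.05, 6 residual degrees of freedom). Of all tested genes 0.145%, 2.59% and 5.57% passed in these 3 contrasts. At an unadjusted p of 0.05 the members counted were 0 in unconfined cells, 1 in confined cells (Birc2) and 2 over both conditions (Birc2 and Ripk1), where 9.6%, 16.8% and 20.2% of tested genes were. Neither edgeR nor DESeq2 on the recovered reads called any member in these contrasts. Averaged over both conditions, the WKO minus WT difference in Tnf was -0.14 on the log2 scale, with a 95% interval from -1.32 to 1.04 (adjusted p = 0.928 in limma). The interval reaches past 1 log2 unit on either side, so the Tnf levels of the genotypes were not shown to be alike. Tnfrsf1a (0.10, interval -0.10 to 0.29) and Tnfrsf1b (0.08, interval -0.21 to 0.36) were bounded more closely.

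Birc2 came nearest to a difference between the genotypes. Every WKO library was above every WT library of its condition, 432 and 396 against 313 and 332 in unconfined cells, and 305, 311 and 379 against 290.3, 263 and 237 in confined cells. The average difference was 0.34 on the log2 scale, with a 95% interval from 0.09 to 0.59 and an adjusted p of 0.107 in limma, which ranged from 0.051 to 0.385 over the alternative settings. Birc3 (0.39, interval -0.01 to 0.79, adjusted p = 0.256 in limma) and Ripk1 (0.20, interval 0.01 to 0.39, adjusted p = 0.213 in limma) also had positive average differences, but neither passed. Without confined WKO replicate 5 the Birc3 difference was 0.22 over both conditions. In confined cells it was 0.44 with that library and 0.09 without it. Non-overlapping libraries placed 3 members higher (Birc2, Birc3 and Ripk1) and 1 lower (Traf2) in unconfined WKO cells, where 22.2% and 22.7% of tested genes did the same, and 1 member (Birc2) higher and 0 lower in confined WKO cells, where 10.7% and 10.4% did. Marker genes moved with the genotype as well. Of 11 tested stromal markers, 8 were higher in confined WKO cells and 5 over both conditions at an adjusted p of 0.05 in limma. Their summed levels were 1014 to 2103 in unconfined and 245 to 944 in confined WT cells, against 2809 to 3328 and 1110 to 12429 in WKO cells. Of the 13 neutrophil and progenitor markers, 0 passed in confined cells (11 at an unadjusted p of 0.05 in limma) and 7 were higher over both conditions. Of the 10 macrophage markers, Mertk, Lyz2 and Csf1r were higher in both of these contrasts, and the sums were 283917 to 308900 in WT and 335230 to 397696 in WKO libraries. The neutrophil and progenitor markers summed to 9027 to 12441 in unconfined WT and 28072 to 34216 in unconfined WKO cells, and the B lineage markers to 815 to 892 and 4079 to 4427. In confined cells the neutrophil sums were 3156 to 9915 in WT and 8759 to 31899 in WKO cells, and the B lineage sums 414 to 793 and 1613 to 5202. Markers of T and NK cells summed to at most 19.2, with Ncr1 at 0 in every library, those of dendritic cells to at most 162, with Xcr1 at 0, and those of mast cells to at most 67.1, with Mcpt4 and Tpsb2 at 0. Between confined and unconfined cells, the median log2 fold change of the stromal markers was -1.82 in WT and 0.28 in WKO cells. That of the neutrophil and progenitor markers was -1.29 and -1.08, and none of either list passed. Cd79b was lower in confined WT cells and Cd14 higher in confined WKO cells at the threshold. The part of these markers in the genotype and confinement differences was not tested. In bulk RNA fewer cells of a type and less RNA per cell cannot be told apart.

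Cflar was the member whose genotype result changed with replicate 5 of the confined WKO cells. With it, the difference between WKO and WT in confined cells was 0.09 on the log2 scale (adjusted p = 0.936 in limma). Without it, Cflar fell below the WT level by 0.49 on the log2 scale (SE 0.116, 95% interval -0.74 to -0.24, adjusted p = 0.0386 in limma), with 1906 and 2162 in WKO against 2766, 2939 and 2831 in WT cells. Averaged over both conditions without that library, the difference was -0.31 (adjusted p = 0.0437 in limma). Since 1 library decides the call, the values are given both ways and no direction is stated for Cflar.

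The response to confinement was not shown to differ between the genotypes for any of the 10 genes. The interaction, the WKO response minus the WT response, had an adjusted p of 0.999 in limma for each member, and 0 of the 12455 tested genes (0%) passed, as with edgeR and DESeq2, while 2.07% had an unadjusted p of 0.05 or less, none of them members. For Tnf the difference between responses was -0.008 on the log2 scale, with a 95% interval from -2.37 to 2.35, and without replicate 5 it was -0.80 (interval -2.56 to 0.95). The intervals were narrowest for Ripk1 (-0.44 to 0.32) and Tnfrsf1a (-0.28 to 0.50). Both of these, like those of Birc2 (-0.53 to 0.47) and Traf2 (-0.53 to 0.56), still allow differences as large as the responses themselves. The interval of Birc3 ran from -0.72 to 0.89. For Traf1 the difference was -0.25 (interval -2.15 to 1.65), and -1.06 (interval -2.09 to -0.04) without replicate 5, where it also did not pass after adjustment.

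**Figure D4:**
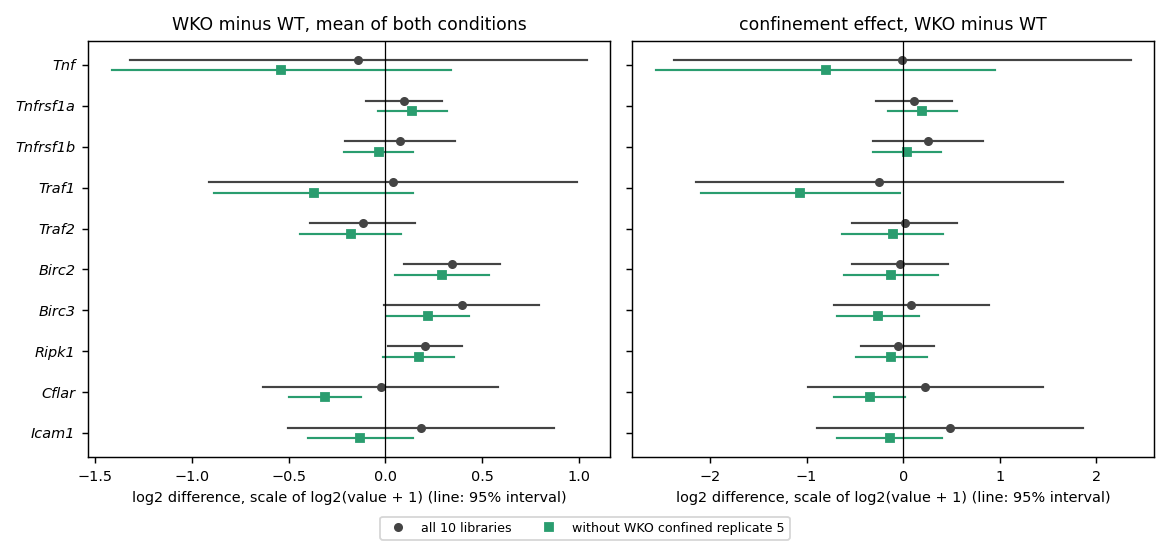
WKO minus WT difference averaged over both conditions (left) and the confinement response of WKO minus that of WT cells (right) for each gene, in log2 units with 95% intervals from the limma fit, from all 10 libraries (circles) and without confined WKO replicate 5 (squares). On the left the intervals of Birc2 (0.09 to 0.59) and Ripk1 (0.01 to 0.39) lie above 0 before adjustment, and on both sides the interval of Tnf is the widest of the 10 with all libraries.

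Other genes of the pathway were read from lists by role, and for these genes, which are not members, the test in each genotype is given, though the lists too were drawn up with results of these data known. Genes counted as having risen or fallen are those past the threshold. Of all tested genes, 1.16% passed it in WT cells and 1.72% in WKO cells, and nothing is read from the number of listed genes. None of the 7 genes that control the shedding of TNF, such as Adam17 and Rhbdf2, passed in either genotype, with 2 at an unadjusted p of 0.05 or less in limma in each. Of all tested genes, 12.2% had such a p in WT cells and 14.1% in WKO cells. Of the 18 other genes of the receptor complex and the IKK kinases, 1 rose in each genotype and none fell. That gene was Map3k8, the kinase that links the pathway to ERK, which went from 283 and 182 to 543, 664 and 696 in WT cells and from 260.5 and 455 to 1018, 746 and 985 in WKO cells. Its log2 fold change was 1.47 in WT cells (SE 0.254, adjusted p = 0.0178 in limma) and 1.40 in WKO cells (adjusted p = 0.0181). None of the 10 genes of the death complex, such as Casp8, Ripk3 and Mlkl, passed in a confinement contrast. At an unadjusted p of 0.05 or less in limma there were 0 in WT cells and 3 in WKO cells, beside 12.2% and 14.1% of all tested genes.

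Among 12 deubiquitinases and brakes on NF-kB, 2 rose in WT cells and 3 in WKO cells, and none fell. Past the same threshold were 1.16% and 1.72% of all tested genes. Nfkbia, the inhibitor that holds NF-kB in the cytoplasm, went from 512 and 497 to 4968, 7216 and 10114 in WT cells and from 459 and 873 to 7366, 3556 and 15490.3 in WKO cells. Its log2 fold change was 3.82 in WT (SE 0.485, adjusted p = 0.00286 in limma) and 3.55 in WKO cells (adjusted p = 0.00374). Tnfaip3, which encodes the ubiquitin editor A20, rose by 2.43 in WT (adjusted p = 0.0212 in limma) and 2.71 in WKO cells (adjusted p = 0.00908) on the log2 scale. Nfkbie, another inhibitor of NF-kB, rose by 2.66 in WKO cells (adjusted p = 0.0130 in limma), where replicate 5 held 2444 and the other confined libraries 695 and 577. In WT cells Nfkbie did not pass but also went up, from 176 and 181 to 627, 868 and 657. Without replicate 5 the WKO values were 3.01 for Nfkbia, 2.14 for Tnfaip3 and 2.01 for Nfkbie. The 6 confined libraries had the same order for Nfkbia and Tnfaip3 as for Icam1.

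Of 15 listed TNF-induced genes, 12 were tested, and 4 rose and 1 fell in WT cells while 6 rose in WKO cells. The shares of all tested genes past the threshold were 1.16% and 1.72%. Irf1, a transcription factor of the interferon response, went from 491 and 547 to 3626, 5464 and 4414 in WT cells and from 723 and 1172 to 4349.6, 3198 and 8777 in WKO cells. Its log2 fold change was 3.10 (SE 0.343, adjusted p = 0.00173 in limma) and 2.43 (adjusted p = 0.00416). Rel, an NF-kB subunit, rose by 2.33 and 2.34 on the log2 scale (adjusted p = 0.00558 and 0.00409 in limma). Gadd45b, a stress-induced regulator of MAP kinases, rose by 2.34 and 2.70 (adjusted p = 0.00895 and 0.00343 in limma), and Bcl3, an atypical nuclear inhibitor-family protein, by 1.60 and 1.49 (adjusted p = 0.0237 and 0.0275). Without replicate 5 the WKO values were 2.02 for Irf1, 1.88 for Rel, 2.48 for Gadd45b and 1.12 for Bcl3. Relb and Nfkb2, subunits of the alternative NF-kB pathway, passed in WKO cells and not in WT cells, and are named after their values were seen. No gene of this list passed the interaction, so their responses were not shown to differ between the genotypes. How far the calls of Relb and Nfkb2 rest on single libraries is not given here. Vcam1, an adhesion molecule, fell in WT cells by 0.92 on the log2 scale (adjusted p = 0.0417 in limma), from 1292 and 986 to 657, 656 and 496, and is named after its value was seen. In WKO cells Vcam1 did not pass but also went down, from 1938 and 2536 to 1598, 1329.7 and 1179. The median log2 fold change of the 12 genes was 1.13 in WT and 1.37 in WKO cells, against -0.007 and -0.01 for all tested genes.

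Among the other TNF superfamily ligands, 6 of 17 were tested and 1 rose in each genotype. Tnfsf9 (4-1BB ligand) went from 76.9 and 16.3 to 549.6, 988 and 1569.8 in WT cells and from 35.5 and 8.26 to 847, 256 and 4405 in WKO cells. Its log2 fold change was 4.69 in WT (SE 1.00, adjusted p = 0.0495 in limma) and 5.74 in WKO cells (adjusted p = 0.0147). Of 26 other receptors of the family 15 were tested, and 2 rose in each genotype. For these ligands and receptors too, 1.16% and 1.72% of all tested genes passed. Tnfrsf12a, the receptor of the cytokine TWEAK, rose by 1.43 in WT and 1.35 in WKO cells on the log2 scale (adjusted p = 0.0446 and 0.0467 in limma). Tnfrsf26, another receptor of the family, rose by 1.01 in WT cells (adjusted p = 0.0328 in limma). Cd40, the receptor of CD40 ligand, rose by 1.82 in WKO cells (adjusted p = 0.0433 in limma), where replicate 5 held 755 against 299.7 and 226. Neither passed in the other genotype, though both went up there. Tnfrsf26 went from 281 and 346 to 366, 515 and 433 in WKO cells, and Cd40 from 123 and 92.1 to 205, 264 and 254 in WT cells. Without replicate 5 the WKO values were 4.67 for Tnfsf9, 1.31 for Cd40 and 1.39 for Tnfrsf12a.

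**Figure D5:**
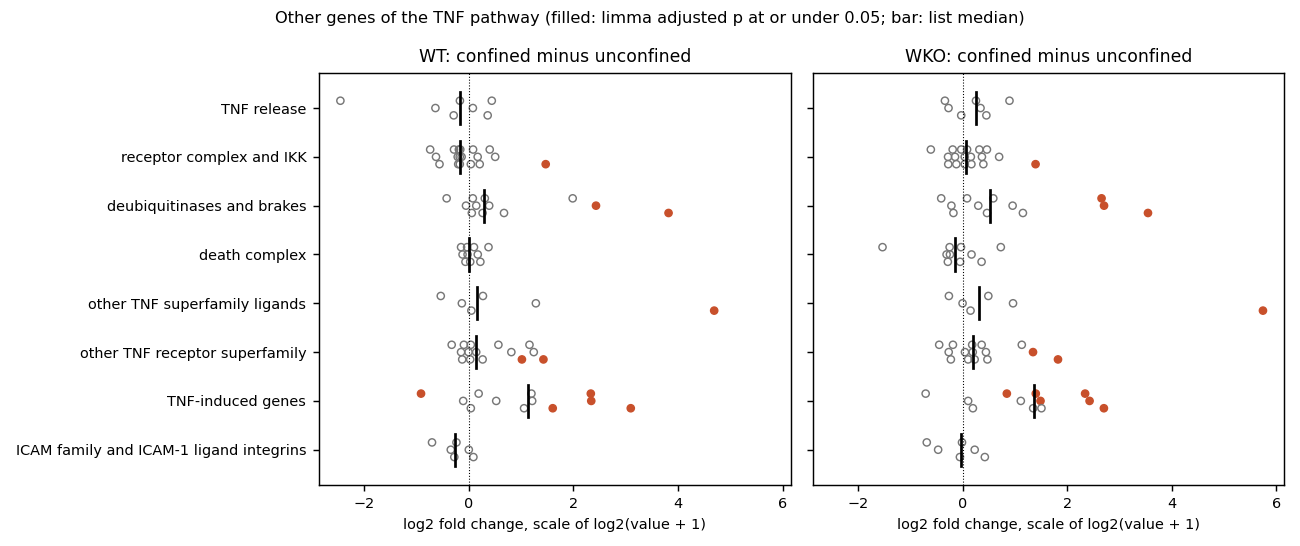
Log2 fold change of confined against unconfined cells for each tested gene of the 8 pathway lists, WT and WKO in separate panels on a shared axis, with genes passing the limma threshold filled. The lists of TNF-induced genes (medians 1.13 and 1.37) and of brakes on NF-kB (0.28 and 0.53) reach to the right, while the lists of shedding, death complex and integrin genes hold no filled point.

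Many of these calls rest on few unconfined libraries and on the form of the fit. Of the 10 calls named in WT cells by the stated rule, 9 were lost without unconfined WT replicate 1, 8 without unconfined WT replicate 3, and 5, 6 and 6 without confined WT replicates 2, 3 and 6. All 11 calls named in WKO cells were lost without unconfined WKO replicate 1 and 6 were lost without unconfined WKO replicate 3, while none was lost without confined WKO replicate 5. Without the mean-variance trend 9 of the 10 calls in WT and all 11 in WKO cells were lost, and with only the compared groups fitted 10 of the 11 in WKO cells were lost. No direction changed in any setting tried.

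Between the genotypes, 4 genes of these lists passed over both conditions, and 2 of them in confined cells as well. Of all tested genes, 5.57% and 2.59% passed in these contrasts, and nothing is read from the number of listed genes. Vcam1 was higher in WKO cells, by 1.18 in confined cells (SE 0.169, adjusted p = 0.00625 in limma) and by 1.08 over both conditions (adjusted p = 0.00139). It held 1938 and 2536 in unconfined and 1598, 1329.7 and 1179 in confined WKO cells, above all WT libraries of the same condition. Bcl2l1, the survival gene that encodes BCL-XL, was lower in WKO cells, by -0.61 in confined cells (adjusted p = 0.0280 in limma) and -0.55 over both (adjusted p = 0.00957). Among 6 tested genes of the ICAM family and its ligands, Itgax (CD11c) was lower by -0.90 over both conditions (adjusted p = 0.00773 in limma) and Spn (CD43), which ICAM-1 can bind, was higher by 1.02 (adjusted p = 0.0119). Bcl2l1 over both conditions did not pass without unconfined WT replicate 1 or unconfined WKO replicate 3, Spn not without unconfined WT replicate 1 or unconfined WKO replicate 1, and Bcl2l1 in confined cells not without any 1 of the confined WT libraries or confined WKO replicate 2. The call of Bcl2l1 in confined cells was also lost with a replicate block, without the filter on low values, without the mean-variance trend and with only the compared groups fitted, and that of Vcam1 in confined cells without the trend (adjusted p = 0.0553 in limma). The stromal, neutrophil, B lineage and macrophage markers given above moved with the same contrast, and their part was not tested.

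The 5 genes whose pattern over the 10 libraries was most like that of Tnf were found by the root-mean-square difference between centred log2 profiles, among 10216 genes with a mean of at least 50. They were Cxcl2 (0.535 log2 units), Gem (0.665), Socs3 (0.776), Mir155hg (0.838) and Il1b (0.857), against a median of 3.30 over all candidates. That median mostly restates the wide difference of Tnf itself, since any gene that differs little with confinement lies far from it. Cxcl2, a chemokine that attracts neutrophils, held 50.3 and 31.7 in unconfined and 2207, 4962 and 8728 in confined WT cells, and 51.3 and 66.1 in unconfined and 5636, 2471 and 20069.8 in confined WKO cells. Il1b, which encodes interleukin 1 beta, held 13.3 and 21.1 then 637, 870.4 and 705 in WT cells, and 18.7 and 32 then 968, 415 and 5615 in WKO cells. Socs3, a feedback inhibitor of cytokine receptors, held 19 and 19.2 then 716, 1136 and 1915 in WT cells, and 21.7 and 119 then 1501, 599 and 6332 in WKO cells. Gem, a small GTPase, went from at most 9.29 in the unconfined libraries to 128 or more in the confined ones. Mir155hg, the host transcript of a microRNA of activated macrophages, had 0 reads in all 4 unconfined libraries and held 26.8, 43.4 and 78.7 in confined WT and 16.5, 22.1 and 377 in confined WKO cells. It reached the mean of 50 through the confined libraries alone, WKO replicate 5 above all. Each of these genes had its highest value in confined WKO replicate 5, and their likeness to Tnf is a description over 10 libraries that share the same 4 groups.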

How the data were processed

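A single expression table was used, with 57010 gene identifiers and 10 libraries, and its values were deposited as a scaled signal, namely read counts corrected for depth. Per the submitters' processing notes, FastQC, Trim Galore and STAR were used and GRCm38 (mm10) is named. How reads were assigned to genes, with which annotation and whether by strand, is not given in the sources used here. The deposited values are whole reads divided by 1 size factor per library: 100% came out whole within 0.001 reads, and the factors equal the median-of-ratios factors of DESeq2 1.42.0. This scaling removes depth but not differences in composition.

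Genes with a mean of at least 10 (12455) were tested as log2(value + 1) with limma 3.58.1 in R 4.3.3, with 1 mean per group over all 10 libraries and a mean-variance trend. Fold changes on this scale understate those of low genes. P-values were adjusted by Benjamini-Hochberg over all tested genes, with a threshold of 0.05. edgeR 4.0.16 and DESeq2 on the recovered reads, other scalings, pseudocounts and filters, and each library left out were alternatives. The script was tested on simulated data. Intervals of 95% come from limma. The floor of 3 reads covers counting error only. Sequence shared between transcripts was sought with blastn 2.17.0.

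Named are the 10 members, Was, up to 4 passing genes of each pathway list per contrast by smallest p, and the 5 genes most like Tnf. Members and lists were chosen with earlier results of these data known.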

Additional observations from a re-analysis of the deposited data

How the results depend on the processing

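Beside the main settings, 700 values of the members under other settings and 600 with 1 library left out were computed. Of the 700, 649 kept their direction and their side of the threshold, 14 passed only under the other setting, 1 no longer passed and 36 changed sign. Of the 600, the numbers were 536, 10, 0 and 54. A value that changed sign is counted only as such, also where it newly passed. Cflar between genotypes in confined cells, without confined WKO replicate 5, is such a value (adjusted p = 0.0386 in limma). The cause of the sign changes was not tested, and no member changed sign under TMM or upper-quartile scaling.

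The number of members passing for confinement in WT cells (1) was 0 without the mean-variance trend, 3 with array weights, 4 with only the compared groups fitted, 4 with a replicate block, 2 with DESeq2, and 1 to 4 with 1 library left out (4 without confined WKO replicate 5). In WKO cells (1) it was 3 with array weights, 2 with the replicate block, 3 with DESeq2, and 1 to 4 with 1 library left out (4 without confined WKO replicate 1, 3 without replicate 5). For genotype in confined cells and over both conditions (0) it was 0 to 1 (Cflar, without confined WKO replicate 5).

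Over all genes, the 144 passing for confinement in WT cells became 20 without the trend, 419 with array weights, 455 with only the compared groups fitted, 332 with DESeq2 (209 higher and 123 lower, against 111 and 33) and 22 to 397 with 1 library left out. With array weights 301 were higher and 118 lower. The 214 in WKO cells (185 and 29) became 45, 1735 (1087 and 648), 33, 484 and 43 to 1043. For genotype in unconfined cells, 18 became 10 without the filter, 4 without the trend, 166 with array weights, 189 with only the compared groups, 245 with the replicate block, 179 with DESeq2 and 4 to 141 with 1 library left out. For genotype in confined cells, 322 became 186, 53, 1948, 90 with only the compared groups, 775 with DESeq2 and 58 to 701. Over both conditions, 694 became 438, 360, 1804, 1147 with DESeq2 and 169 to 1115. With only the compared groups fitted, the average and the interaction cannot be formed and were not run.

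The labels do not say whether libraries with the same replicate number are paired. Deviations from group means correlated at 0.006 to 0.076 over genes in the same-numbered libraries compared. In groups of 2 libraries the deviations mirror each other, so these correlations cannot decide whether the numbers pair the samples. In the fit with the replicate block, replicates 5 and 6 occur once and do not bear on the contrasts. Signs changed under the block or array weights as follows. For confinement in WKO cells, Tnfrsf1a was 0.051 (block) and Traf1 -0.081 (block) and -0.021 (weights). For genotype in confined cells, the block gave Tnfrsf1b -0.089, Cflar -0.55 and Icam1 -0.036, and weights gave -0.028, -0.28 and -0.22. Over both conditions, the block gave Tnfrsf1b -0.072, Traf1 -0.44 and Icam1 -0.047, and weights gave -0.041, -0.35 and -0.14. For the interaction, the block gave Tnf 0.094, Tnfrsf1b -0.034, Traf2 -0.070, Birc3 -0.24 and Cflar -0.41, and weights gave Traf2 -0.15, Birc3 -0.17, Cflar -0.14 and Icam1 -0.16.

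Under edgeR and DESeq2, Tnf between genotypes was 0.15 and 0.16 in unconfined cells, 0.093 and 0.11 in confined cells, and 0.12 and 0.13 over both. Traf1 was 0.39 and 0.42 in confined cells and 0.28 and 0.31 in the interaction, and Cflar was 0.092 and 0.098 over both.

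With 1 library left out, the log2 differences that changed sign ranged as follows. For confinement in WT cells, Tnfrsf1b -0.044 to 0.13, Ripk1 -0.17 to 9.3e-06. For confinement in WKO cells, Traf1 -0.039 to 1.29. For genotype in unconfined cells, Tnf -1.08 to 0.81, Tnfrsf1a -0.032 to 0.11, Tnfrsf1b -0.13 to 0.021, Traf1 -0.31 to 0.64, Cflar -0.30 to 0.025, Icam1 -0.13 to 0.010. For genotype in confined cells, Tnf -0.94 to 0.49, Tnfrsf1b -0.017 to 0.34, Traf1 -0.90 to 0.43, Cflar -0.49 to 0.42, Icam1 -0.20 to 0.86. For genotype over both conditions, Tnf -0.61 to 0.33, Tnfrsf1b -0.036 to 0.14, Traf1 -0.37 to 0.30, Cflar -0.31 to 0.14, Icam1 -0.13 to 0.40. For the interaction, Tnf -0.96 to 0.94, Tnfrsf1a -0.0071 to 0.20, Traf1 -1.06 to 0.27, Traf2 -0.11 to 0.12, Birc2 -0.13 to 0.043, Birc3 -0.26 to 0.28, Ripk1 -0.13 to 0.038, Cflar -0.35 to 0.56, Icam1 -0.14 to 0.92. Of the 27 calls of other pathway genes named, 3 passed under every setting (Irf1 for confinement in WT cells, Itgax and Vcam1 for genotype over both conditions). Depth is lowest for unconfined Tnf (from 33 reads) and for Traf1 (44 to 299 reads).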
